A study of Mus musculus with 11 samples.

Results

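The genes described here are 51 cell cycle and DNA replication genes of the mouse, taken by symbol from the 23238 genes measured in each of 11 RNA sequencing libraries. They are the proliferation marker Mki67, 5 cyclins and kinases of G1 and S phase, 6 cyclins, kinases and a phosphatase of G2 and M phase, 11 genes of origin licensing and the replicative helicase, 4 of the fork clamp and nucleotide supply, 2 transcription factors, 11 genes of the chromosome, kinetochore and checkpoint, and 11 of the spindle and cytokinesis. All 51 were found, and all 51 passed the filter on low values, which kept the 18248 genes that reached a normalized count of 1 in 3 libraries or more. The lowest normalized count of any of the 51 genes in any library was 16.1.

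The libraries came from cells that the labels call mouse cavernous endothelial cells, from the corpus cavernosum, the erectile tissue of the penis. All cells grew in medium 199 with 20% fetal bovine serum, penicillin, streptomycin and heparin, and were kept for 5 days in high glucose with Hsp70, a heat shock chaperone protein (n = 4), in high glucose (n = 4) or in normal glucose (n = 3). The labels give no glucose concentration, no form or dose of Hsp70, no strain, age or number of animals, and nothing that says that replicates were separate cultures. Every p therefore measures the spread between these libraries, which may be technical. The names of the deposited files number the libraries by set: set 2 held 1 Hsp70 and 1 high glucose library, and sets 3, 4 and 5 each held 1 library of every group. Libraries are named below by group and set, and lists of values run from set 2 to set 5, or from set 3 to set 5 for normal glucose.

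A dividing cell copies its DNA in S phase and separates the copies in M phase. D-type cyclins with Cdk4 and E-type cyclins with Cdk2 release E2F factors from their repressors, and E2F factors drive the genes that license origins and build forks. Later, a complex of B-Myb, MuvB and Foxm1 drives the mitotic genes, whose promoters often carry a cell cycle homology region (CHR) and CCAAT boxes. Endothelial cells are mostly quiescent in the body and enter the cycle when cultured with serum. In bulk RNA, fewer cycling cells and less of these RNAs in each cycling cell cannot be told apart.

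The promoters of a few of these genes are shown first. They were chosen by the smallest unadjusted p in comparisons of groups below, and none passed adjustment there. Ccnb1, the cyclin that activates Cdk1 at mitosis, and Ckap2l, a spindle protein, had the smallest p of the 51 genes between Hsp70 and high glucose. Mcm2, a subunit of the replicative helicase, Cdt1, which loads that helicase at origins, and Cdk4, the kinase partner of D-type cyclins, had the smallest p between high and normal glucose within sets. Each sequence is 300 bases, from 250 before to 50 after the start of the gene, printed 5′ to 3′ on the gene's strand, from RefSeq on GRCm38.p6. Capitals mark the letters of 3 motifs searched on both strands: E2F (TTCCCGC or TTGGCGC), CHR (TTTGAA or TTTAAA) and the CCAAT box (CCAAT). E2F and CCAAT letters can overlap, as they do in Ccnb1. The regions are Ccnb1 at chr13:100786437-100786736 (minus strand), Ckap2l at chr2:129297163-129297462 (minus strand), Mcm2 at chr6:88898731-88899030 (minus strand), Cdt1 at chr8:122567765-122568064 (plus strand) and Cdk4 at chr10:127063285-127063584 (plus strand).
Ccnb1: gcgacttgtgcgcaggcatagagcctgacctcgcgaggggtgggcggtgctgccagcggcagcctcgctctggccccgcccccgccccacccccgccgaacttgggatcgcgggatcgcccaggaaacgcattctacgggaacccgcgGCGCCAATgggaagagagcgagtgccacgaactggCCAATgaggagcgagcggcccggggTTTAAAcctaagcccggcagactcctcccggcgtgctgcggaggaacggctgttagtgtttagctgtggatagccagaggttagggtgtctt
Ckap2l: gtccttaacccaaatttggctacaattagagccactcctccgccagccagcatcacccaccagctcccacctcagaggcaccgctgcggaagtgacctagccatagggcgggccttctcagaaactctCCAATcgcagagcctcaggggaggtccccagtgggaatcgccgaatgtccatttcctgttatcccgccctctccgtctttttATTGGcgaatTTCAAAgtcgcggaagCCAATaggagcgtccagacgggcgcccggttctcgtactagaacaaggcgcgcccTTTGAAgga
Mcm2: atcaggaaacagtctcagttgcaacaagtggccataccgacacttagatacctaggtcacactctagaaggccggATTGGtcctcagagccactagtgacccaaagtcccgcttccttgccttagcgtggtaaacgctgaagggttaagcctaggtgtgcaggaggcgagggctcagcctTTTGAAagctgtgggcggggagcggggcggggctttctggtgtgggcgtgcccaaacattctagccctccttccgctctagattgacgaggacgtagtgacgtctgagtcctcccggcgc
Cdt1: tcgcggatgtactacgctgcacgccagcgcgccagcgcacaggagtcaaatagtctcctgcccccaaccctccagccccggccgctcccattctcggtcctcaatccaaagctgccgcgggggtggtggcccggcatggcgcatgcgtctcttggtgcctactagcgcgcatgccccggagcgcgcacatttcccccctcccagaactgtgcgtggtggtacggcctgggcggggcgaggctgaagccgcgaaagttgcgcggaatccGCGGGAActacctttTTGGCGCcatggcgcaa
Cdk4: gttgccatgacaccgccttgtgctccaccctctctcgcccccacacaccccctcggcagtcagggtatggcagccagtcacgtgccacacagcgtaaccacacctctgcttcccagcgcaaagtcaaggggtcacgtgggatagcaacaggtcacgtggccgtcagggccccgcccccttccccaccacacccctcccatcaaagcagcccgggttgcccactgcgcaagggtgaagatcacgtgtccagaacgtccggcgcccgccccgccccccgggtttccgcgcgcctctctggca
The Ccnb1 promoter holds a CHR 42 bases before the start and CCAAT boxes 67 and 99 bases before it. An E2F motif, on the other strand, lies 102 bases before it. The Ckap2l promoter holds a CHR 30 bases before the start and another 42 bases after it, with 3 CCAAT boxes. The Mcm2 promoter holds a CHR 70 bases before the start and a CCAAT box, on the other strand, 175 bases before it. The Cdt1 promoter holds both E2F motifs just after the start, and no CHR or CCAAT box. The Cdk4 window holds none of these letters.

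A promoter was found for 40 of the 51 genes, and E2F and CHR motifs were spread unevenly over replication and mitosis genes. Tpx2, Aurkb, Mcm4, Ccne2, Ccnd1, Kif20a, Gins1, Cdc25c, Foxm1, Gins2 and Ccna2 had no entry. An E2F motif was found in 7 of the 12 promoters of licensing, helicase, clamp and nucleotide genes (Cdc6, Cdt1, Mcm3, Mcm5, Mcm6, Mcm7 and Rrm1), in 0 of the 19 of chromosome, kinetochore, checkpoint, spindle and cytokinesis genes, and in 6.93% of all 27025 promoters. A CHR was found in 3 of the 12 replication promoters (Mcm2, Mcm5 and Rrm2), in 15 of the 19 mitosis promoters and in 27.8% of all promoters. Kif2c is among these 15, but its window (chr4:117178723-117179022, minus strand) lies inside the gene as GENCODE M21 places it (117159639 to 117182639). So do the windows of E2f1, Spice1, Cdc6 and Mcm7, and the last 2 are among the 7 with an E2F motif. The windows of Mcm5, also among those 7, and Mad2l1 end before the gene begins in GENCODE M21. The shares thus rest on RefSeq starts, which differ from GENCODE M21 in these genes. All 4 promoters of the G2 and M phase list that were found (Ccnb1, Ccnb2, Ccnf and Cdk1) held a CHR. Of these, 2 (Ccnb1 and Cdk1) also held an E2F motif, and the Mki67 promoter held both motifs. The CCAAT box was found in 9 of the 12 replication promoters, 13 of the 19 mitosis promoters and 37.9% of all promoters. A match is a description of the letters, not of binding, and the lists differ in size.

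**Figure D1:**
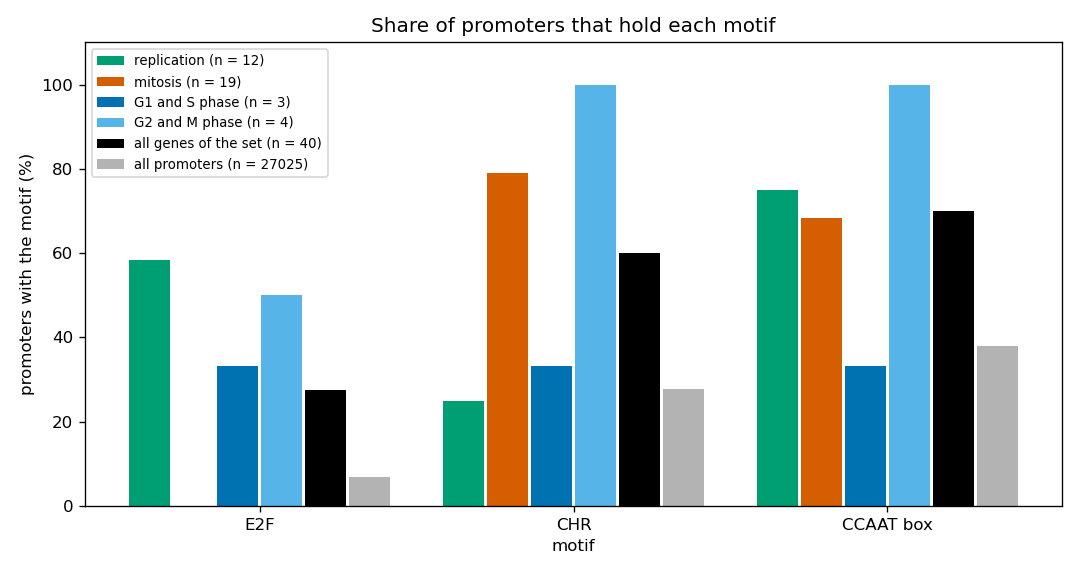
Share of promoters (per cent, y axis) that hold an E2F, CHR or CCAAT motif on either strand, for groups of the 51 genes and for all promoters. E2F letters stand in 58.3% of replication promoters and in none of the 19 mitosis promoters, and CHR letters in 78.9% of mitosis promoters and 25% of replication promoters.

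The deposited values are log2(normalized count + 1), called log2 levels below. Taken back to normalized counts and summed over genes, they came to between 24.8 M and 27.8 M in each library, of which Rn45s, a ribosomal RNA precursor, held between 0.638% and 7.0%. Sets 2 and 3 list 4916 to 6010 genes at 0 and sets 4 and 5 list 2753 in every library, so the files may have been normalized in more than 1 run, which the sources used here do not say. The label of the cells was checked against marker genes. The log2 of the summed normalized counts of 12 endothelial markers was 10.9 to 11.1 in set 3 and 8.36 to 9.04 in the other sets, with Pecam1 at 3.27, 8.86, 3.18 and 2.68 with Hsp70, 3.55, 9.01, 4.51 and 3.73 in high glucose and 9.07, 3.56 and 3.61 in normal glucose. The same sum over 9 fibroblast markers was 18.4 to 18.6 in set 3 and 17.3 to 18.0 in the other sets, above that of the endothelial markers in every library. The sum over 13 macrophage and leukocyte markers, of which 12 passed the filter, was 12.2 to 12.5 in set 3 and 9.08 to 9.78 in the others. Cdh5, another endothelial marker, was at 8.26, 9.45, 5.68 and 6.68 with Hsp70. It was at 7.18, 9.52, 5.93 and 6.36 in high glucose and 9.01, 6.58 and 6.79 in normal glucose. The sum of the endothelial markers was thus lower outside set 3 than in it, and their levels differed by gene. Of the 12, 3 had a median log2 level under 1 outside set 3, though none was at 0 in every library.

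Levels of different genes are compared per kb of the longest annotated transcript. Ccnd1, the D-type cyclin that couples growth signals to Cdk4, was the highest of the 51 genes at a median of 1242 normalized counts per kb. Cdk4 followed at 721, Pcna, the sliding clamp of DNA polymerases, at 717 and E2f1, the S phase transcription factor, at 525. The next were Rrm1, the large subunit of ribonucleotide reductase, at 368, and Top2a, the topoisomerase that untangles chromosomes, at 251. Mki67, the nuclear protein used to mark cycling cells, stood at 211. The lowest were Cdc6, which loads the helicase with Cdt1, at 10.7, the checkpoint gene Mad2l1 at 16.5, the origin recognition subunit Orc1 at 19.5 and the F-box cyclin Ccnf at 19.8. The ranges of neighbours overlapped: Pcna, for instance, was not apart from Cdk4 over the 11 libraries. The longest annotated Mad2l1 transcript has 7557 bases, and a gene is set too low where shorter transcripts were made. From Ccnd1 to Cdc6 the medians spanned 116-fold on this scale.

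**Figure D2:**
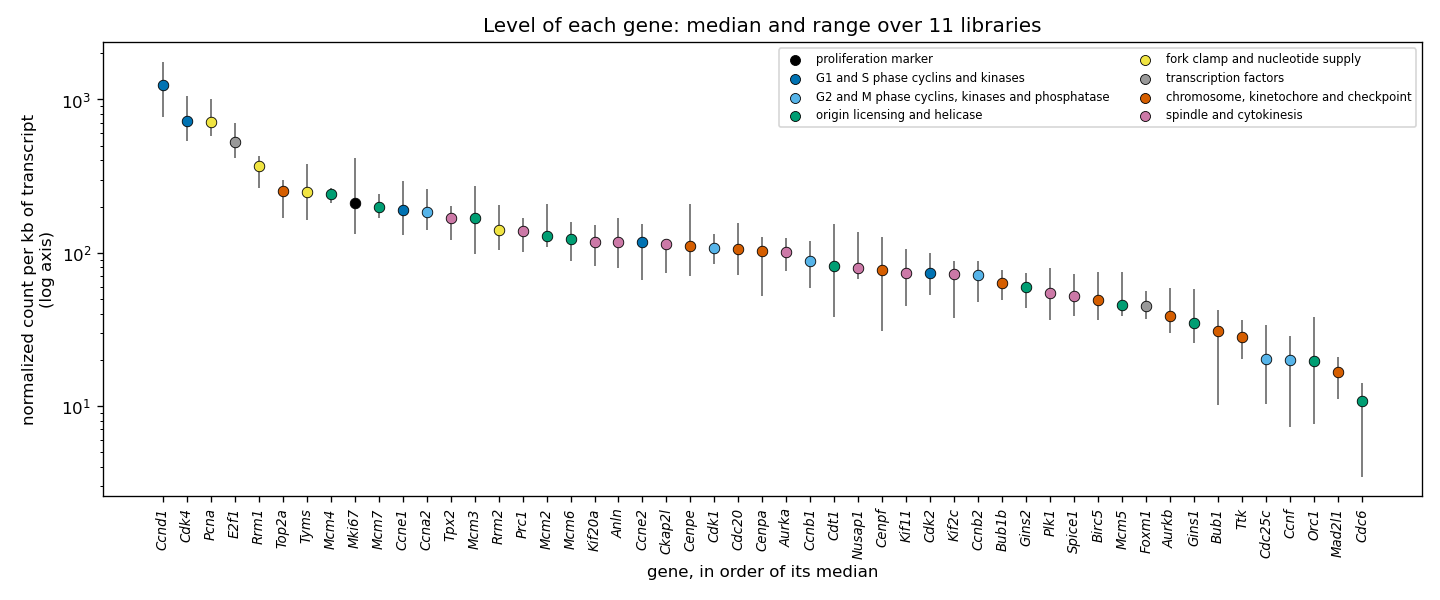
Normalized counts per kb of transcript (log y axis) for each of the 51 genes, as the median (point, coloured by role) and the range (line) over 11 libraries, in order of the median. Ccnd1, Cdk4, Pcna and E2f1 stand highest, and Cdc6, Mad2l1, Orc1 and Ccnf lowest.

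Across the 11 libraries, without regard to group, the log2 level of these genes ranged by a median of 0.91, against 0.91 for the 11816 tested genes of like level. The range was over 1 in 22 of the 51 genes and over 2 in 1, Orc1. Orc1 was at 4.60, 5.60, 5.65 and 6.84 with Hsp70, against 5.90, 4.94, 5.92 and 6.21 in high glucose and 4.60, 5.99 and 6.28 in normal glucose. Its lowest library with Hsp70 (set 2) and its lowest in normal glucose (set 3) were both at 4.60, and its highest was the Hsp70 library of set 5. Mcm4, another helicase subunit, was the steadiest of the 51 genes, with a range of 0.28: it was at 9.67, 9.73, 9.58 and 9.83 with Hsp70, against 9.86, 9.82, 9.83 and 9.75 in high glucose and 9.63, 9.76 and 9.81 in normal glucose. Mcm7 ranged by 0.47 and Foxm1, the mitotic transcription factor, by 0.54. Single genes thus differed several times more from library to library in Orc1, Bub1 and Cenpf than in Mcm4, Mcm7 and Foxm1.

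Replication genes (the 15 of licensing, helicase, clamp and nucleotide supply) and mitosis genes (the 22 of chromosome, kinetochore, checkpoint, spindle and cytokinesis) did not always stand on the same side in a library. In the Hsp70 library of set 2 the replication genes lay a median of 0.36 above their own means over 11 libraries, with 11 of 15 above, and the mitosis genes 0.25 below, with 4 of 22 above. In the high glucose library of the same set both were above, by 0.24 (14 of 15) and 0.20 (19 of 22). In the Hsp70 library of set 5 the medians were -0.07 for replication genes (6 of 15 above) and 0.28 for mitosis genes (19 of 22 above). In set 3, both kinds were below their means with Hsp70 (medians -0.17 and -0.27) and in high glucose (-0.15 and -0.18), and above them in normal glucose (0.15 and 0.20). The other 5 libraries had medians between -0.07 and 0.06 for both kinds. The median over all tested genes stayed between -0.04 and 0.03 in every library.

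Pairs of genes were also set side by side over the 11 libraries, after group means were removed. These correlations describe libraries that share sets, depth and scaling, and they carry no test. The median r was 0.43 over the 231 pairs of mitosis genes, 0.33 over the 105 pairs of replication genes and 0.10 over the 330 pairs of a replication with a mitosis gene. Mcm3 and Ccnd1 had the highest r of all 1275 pairs, 0.96, followed by the kinetochore motor Cenpe with Mki67 at 0.95 and Cdt1 with Cdk4 at 0.95. The most negative were Tyms, thymidylate synthase, with Pcna at -0.93 and the kinetochore protein Cenpf with Mcm7 at -0.93. Among genes outside the lists, the 5 whose levels followed the mean of the 51 genes most closely were Tph2 (r = 0.92), Gm10789 (0.88), Krt19 (0.87), Gm4710 (0.87) and Fhl5 (0.85), over 11 libraries and 18013 genes compared. All 5 had a mean log2 level under 5, from 0.39 to 4.14, where single reads move the value.

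**Figure D3:**
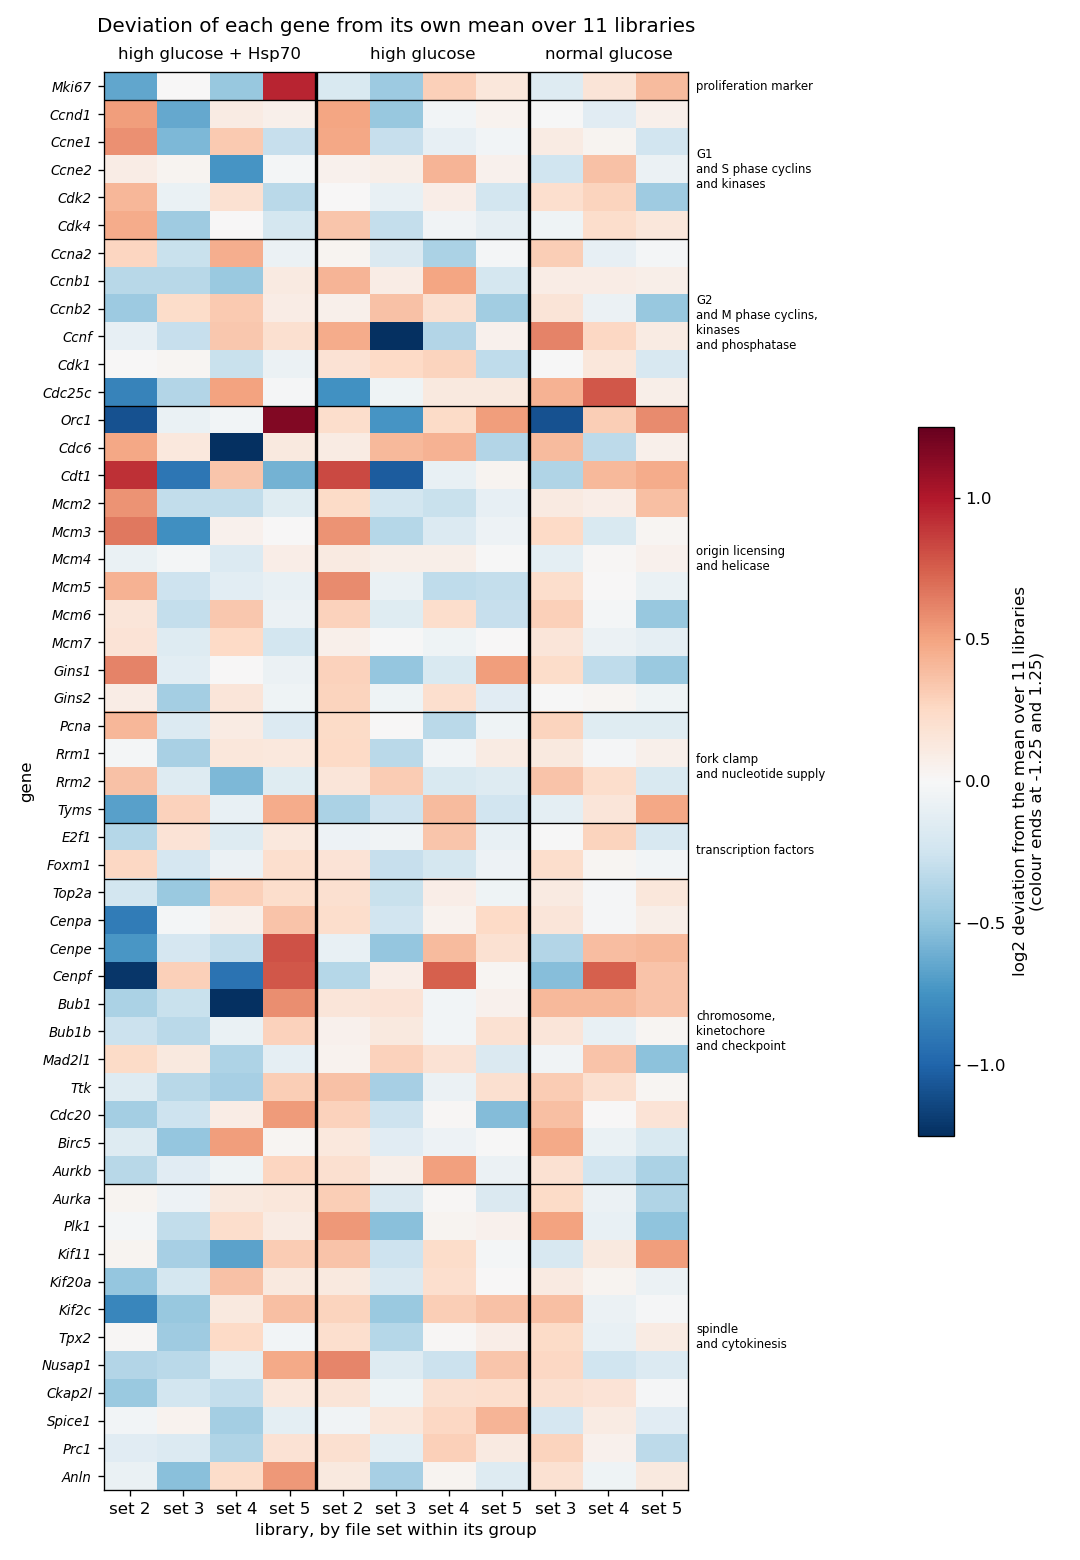
Deviation of the log2 level of each of the 51 genes (rows, by role) from its own mean over 11 libraries, for Hsp70, high glucose and normal glucose libraries (columns, by file set). Red is above and blue below the mean. The Hsp70 library of set 2 is red for most replication genes and blue for most mitosis genes, and the Hsp70 library of set 5 is red for 19 of the 22 mitosis genes.

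The first comparison asked what Hsp70 did to these genes in high glucose. limma called 0 of 18248 genes (0.0%) at an adjusted p under 0.05, and 0 of the 51. At an unadjusted p under 0.05 it listed 136 genes (0.745%), of which 67 were lower with Hsp70 (0.367%) and 69 higher (0.378%). Of the 51 genes 2 were among the lower and 0 among the higher. With the file set as a block it listed 305 genes (1.67%), 157 lower (0.86%) and 148 higher (0.811%), and among the 51 Ccnb1 and Ckap2l, both lower, as without the block. Without the block, differences between sets count in the spread. Chance alone would list a share of about 0.05 at this threshold, more than either model listed. The lack of calls thus does not show that nothing changed. The median log2 difference was -0.04 over the 51 genes, with 33 below 0, and 0.00 over all tested genes, with 49.3% below 0. By role, 10 of 11 chromosome, kinetochore and checkpoint genes were below 0 (median -0.18), 9 of 11 spindle and cytokinesis genes (median -0.22), and 5 of 11 licensing and helicase genes (median 0.00).

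Ccnb1 was at 7.34, 7.34, 7.22 and 7.81 with Hsp70, against 8.11, 7.78, 8.19 and 7.48 in high glucose and 7.78, 7.79 and 7.77 in normal glucose. Of the Hsp70 libraries, 3 lay below every high glucose library and every normal glucose library, and the one of set 5 lay above the high glucose library of its set. The log2 difference of Hsp70 from high glucose was -0.46 (SE 0.19, 95% interval -0.88 to -0.04, unadjusted p = 0.0346, adjusted p = 1.00, limma). A pseudogene, Ccnb1-ps, is annotated, and how reads that fit both were counted is not given in the sources used here.

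Ckap2l was at 7.87, 8.11, 8.04 and 8.47 with Hsp70, against 8.50, 8.28, 8.53 and 8.55 in high glucose and 8.54, 8.51 and 8.32 in normal glucose. It was the only one of the 51 genes lower with Hsp70 than in high glucose in every set, where 4.42% of all tested genes were lower in every set. Within sets the differences were -0.63, -0.17, -0.50 and -0.07, and over the groups the difference was -0.34 (SE 0.16, 95% interval -0.68 to -0.002, unadjusted p = 0.0489, adjusted p = 1.00, limma). The antisense gene Gm14024 shares 181 exon bases with it, and the use of strand in counting is not given. Foxm1 was the only member higher in every set (3.89% of all tested genes were): it was at 8.0, 7.54, 7.67 and 7.96 with Hsp70, against 7.92, 7.46, 7.53 and 7.68 in high glucose and 7.96, 7.77 and 7.71 in normal glucose, and its difference was 0.14 (SE 0.17). None of the 51 genes had Hsp70 libraries all on one side of the high glucose libraries, where 0.323% of all tested genes had them all below and 0.285% all above.

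Of the spindle genes with the next smallest p, Spice1, a spindle and centriole protein, was at 7.91, 7.99, 7.51 and 7.82 with Hsp70, against 7.90, 8.08, 8.20 and 8.37 in high glucose and 7.73, 8.04 and 7.80 in normal glucose. Its difference was -0.33 (SE 0.16, unadjusted p = 0.0697), and the Hsp70 library of set 4 was the lowest of the 11. Prc1, which bundles the microtubules of the spindle midzone, was at 8.54 ± 0.23 with Hsp70 and 8.79 ± 0.18 in high glucose (SD, 4 libraries each), a difference of -0.25 (SE 0.17). The E-type cyclin Ccne2 differed by -0.31 (SE 0.21), with 8.50, 8.44, 7.67 and 8.38 with Hsp70 and 8.46, 8.48, 8.83 and 8.46 in high glucose. Its difference rested on set 4, where the 2 libraries lay 1.16 apart, and it was between -0.08 and 0.04 in the other sets.

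Bub1, a kinase of the spindle checkpoint, was at 6.19, 6.30, 5.18 and 7.16 with Hsp70, against 6.73, 6.75, 6.54 and 6.63 in high glucose and 6.98, 6.99 and 6.94 in normal glucose. The difference of Hsp70 from high glucose was -0.46 (SE 0.33, 95% interval -1.17 to 0.26), and within sets it was -0.54, -0.45, -1.37 and 0.53. The sets thus ran in opposite directions, with the Hsp70 library furthest below its partner in set 4 and above it in set 5.

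For the general markers the Hsp70 and high glucose libraries overlapped. Mki67 was at 10.40, 11.05, 10.57 and 11.998 with Hsp70, against 10.86, 10.60, 11.34 and 11.19 in high glucose and 10.89, 11.21 and 11.44 in normal glucose, and its difference was 0.01 (SE 0.31, 95% interval -0.67 to 0.68). The Hsp70 libraries held both the lowest and the highest Mki67 value of the 11. Top2a was at 10.05, 9.81, 10.58 and 10.50 with Hsp70, against 10.47, 9.99, 10.36 and 10.22 in high glucose and 10.39, 10.26 and 10.42 in normal glucose, with a difference of -0.03 (SE 0.18). Cdk1, the kinase that starts mitosis, differed by -0.18 (SE 0.16), with 8.89, 8.91, 8.61 and 8.81 with Hsp70, against 9.06, 9.13, 9.16 and 8.56 in high glucose and 8.88, 9.02 and 8.68 in normal glucose. Mcm2 differed by 0.04 (SE 0.20), Pcna by 0.08 (SE 0.18) and Ccnd1 by 0.01 (SE 0.25).

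**Figure D4:**
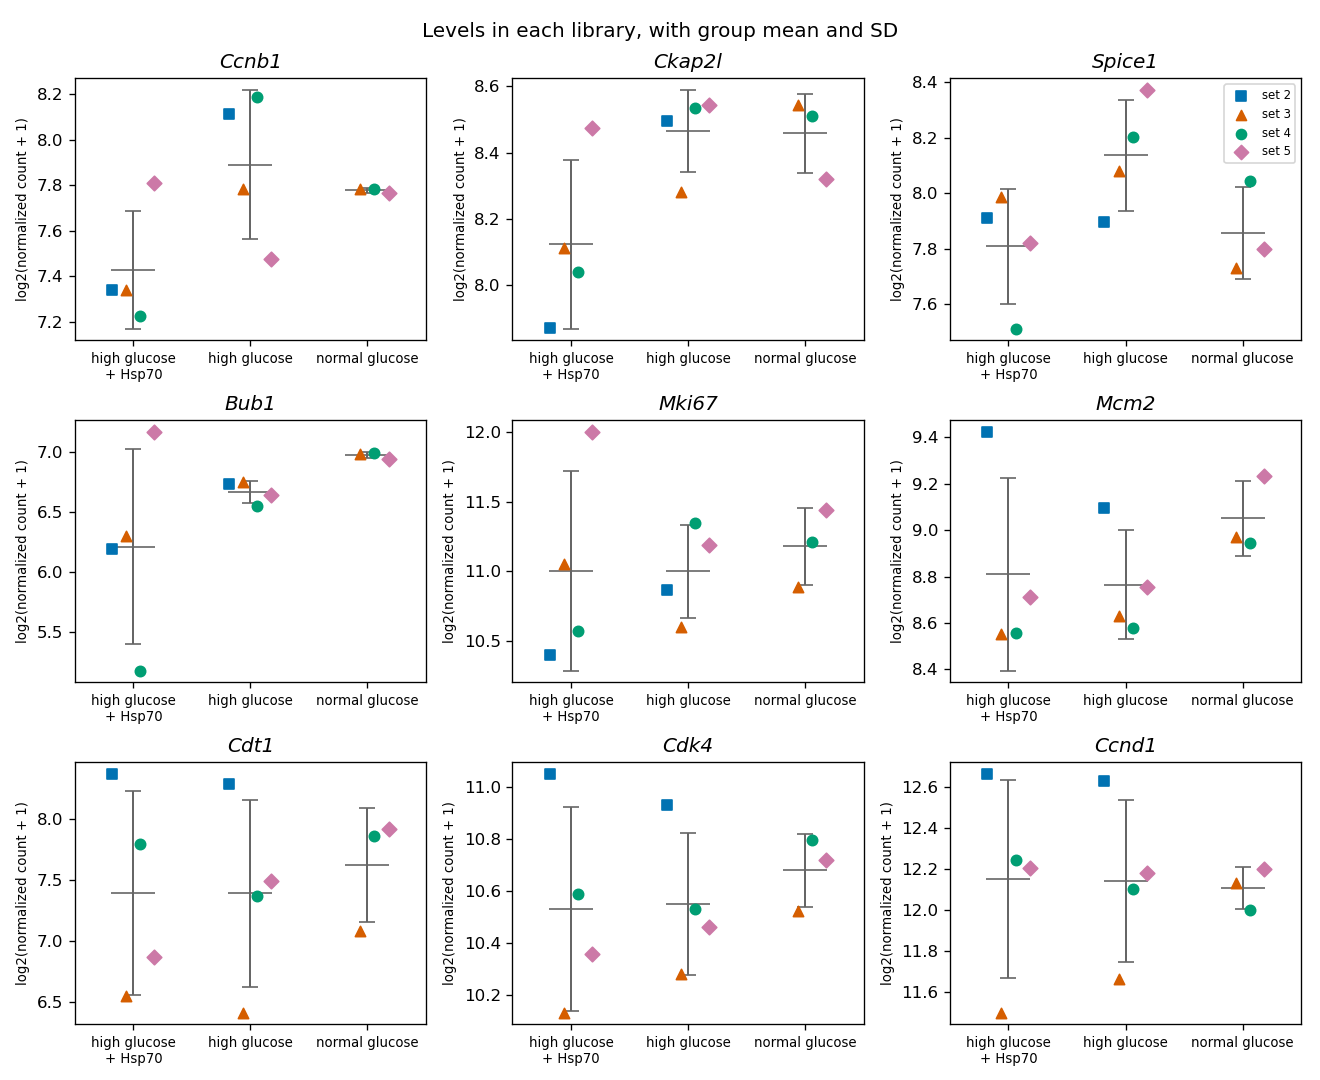
Log2 level (y axis) of 9 genes in each library, with Hsp70 left, high glucose in the middle and normal glucose right. Symbols mark the file set, and the grey bar and whiskers mark the mean and SD of a group. For Ccnb1, 3 of the 4 Hsp70 libraries lie below all others, and for Cdt1, Cdk4 and Ccnd1 the libraries of set 2 lie highest.

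Within sets, the direction of the difference between Hsp70 and high glucose changed from set to set. With Hsp70, 34 of the 51 genes were lower in set 2 (median difference -0.27), 35 in set 3 (-0.09), 24 in set 4 (0.06) and 14 in set 5 (0.09). Over all tested genes these medians were between -0.04 and 0.02. In set 2, 10 of 11 chromosome, kinetochore and checkpoint genes were lower with Hsp70 (median -0.54), 10 of 11 spindle and cytokinesis genes (-0.34) and 0 of 5 G1 and S phase genes (0.09). In set 5 all 11 chromosome, kinetochore and checkpoint genes were higher with Hsp70 (median 0.27). Cenpf is an example, at 8.45, 9.96, 8.73 and 10.44 with Hsp70 and 9.31, 9.74, 10.41 and 9.69 in high glucose, with differences of -0.86, 0.21, -1.68 and 0.75. In set 4 the spread was widest: Cdc6, Bub1, Cenpf and Ccne2 were more than 1 below their high glucose library, 4 of the 51 genes (7.84%), and 0 were more than 1 above. Of the 18248 tested genes, 18.7% differed by more than 1 in either direction, 2539 of them below and 881 above.

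The relation of these differences to transcript length and GC content was not the same in every set. Over the 12684 tested genes with a mean log2 level above 5, the difference between Hsp70 and high glucose in set 4 had a Spearman correlation of -0.36 with transcript length and 0.42 with GC content, and over the 51 genes -0.29 and 0.39. In set 5 the correlations were 0.39 with length and -0.14 with GC content over all genes, and 0.35 and -0.17 over the 51. Cenpf has 11130 bases in its longest transcript, Mki67 10061 and Cenpe 7910, and all 3 were lower with Hsp70 in set 4 and higher in set 5. In set 2, where the mitosis genes were lower, the correlations were -0.05 with length and -0.22 with GC content over all genes, and -0.06 and 0.20 over the 51, so that the sign for GC content was opposite. In set 3 they were 0.31 and -0.10 over all genes, and -0.02 and 0.11 over the 51. The part of length and GC content in these differences was not tested.

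**Figure D5:**
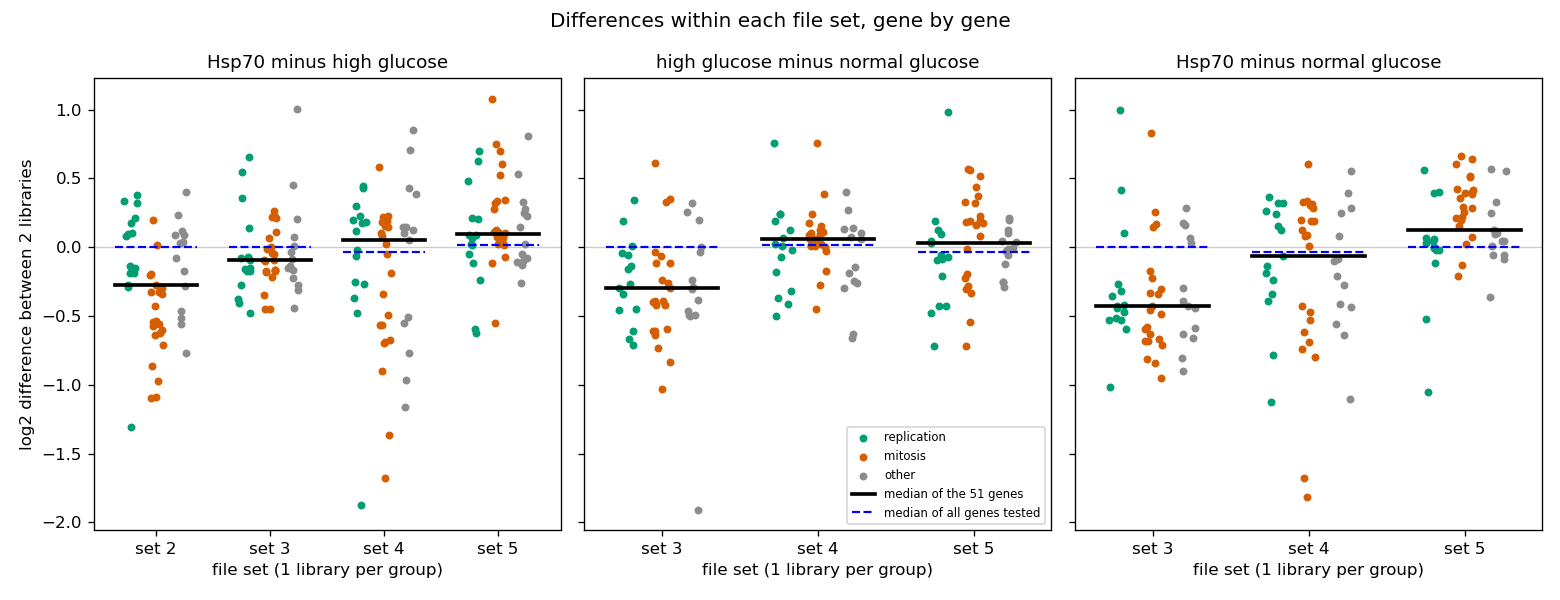
Log2 difference (y axis) of each of the 51 genes between 2 libraries of the same file set, for Hsp70 minus high glucose (left), high glucose minus normal glucose (middle) and Hsp70 minus normal glucose (right). Black lines are the medians of the 51 genes and dashed lines those of all tested genes. The median for Hsp70 minus high glucose is -0.27 in set 2 and 0.09 in set 5.

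The second comparison asked what high glucose did against normal glucose. limma called 0 of 18248 genes (0.0%) at an adjusted p under 0.05, and 0 of the 51. At an unadjusted p under 0.05 it listed 185 genes (1.01%), 109 lower in high glucose (0.597%) and 76 higher (0.416%), and 0 of the 51. The median difference over the 51 genes was 0.00, with 25 below 0, against -0.01 over all tested genes, with 52.1% below 0. All 4 clamp and nucleotide genes were below 0 (median -0.08), 7 of 11 chromosome, kinetochore and checkpoint genes (-0.08) and 3 of 11 spindle and cytokinesis genes (0.03).

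With the file set as a block, 3 of the 51 genes had an unadjusted p under 0.05, all lower in high glucose, and 636 of all tested genes (3.49%) did, 359 of them lower (1.97%) and 277 higher (1.52%). They were Mcm2, Cdt1 and Cdk4, and none passed the adjusted threshold. Mcm2 was at 9.42, 8.55, 8.56 and 8.71 with Hsp70, against 9.10, 8.63, 8.58 and 8.76 in high glucose and 8.97, 8.95 and 9.23 in normal glucose. The high glucose libraries of sets 3, 4 and 5 were below the normal glucose library of their set, with differences of -0.34, -0.37 and -0.48, but the high glucose library of set 2, which has no normal glucose partner, was above 2 of the 3 normal glucose libraries. Its difference was -0.44 with the block (SE 0.12, unadjusted p = 0.00579) and -0.28 without it (SE 0.22, unadjusted p = 0.222).

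Cdt1 was at 8.37, 6.55, 7.80 and 6.87 with Hsp70, against 8.29, 6.42, 7.37 and 7.49 in high glucose and 7.08, 7.87 and 7.92 in normal glucose. In each of sets 3, 4 and 5 the high glucose library was lower, with differences of -0.67, -0.50 and -0.43, and with the block the difference was -0.54 (SE 0.21, unadjusted p = 0.0266). Without the block it was -0.23 (SE 0.49). Cdk4 was at 11.05, 10.13, 10.59 and 10.36 with Hsp70, against 10.93, 10.28, 10.53 and 10.46 in high glucose and 10.52, 10.80 and 10.72 in normal glucose, with differences within sets of -0.24, -0.26 and -0.26 and a difference with the block of -0.28 (SE 0.11, unadjusted p = 0.0304). Tspan31 overlaps Cdk4 by 641 exon bases on the other strand. In all, 8 of the 51 genes (15.7%) were lower in high glucose in every set (Cdk4, Ccna2, Ccnf, Cdt1, Mcm2, Mcm5, Foxm1 and Bub1), where 14.3% of all tested genes were, and 3 were higher in every set (Ccne2, Ccnb2 and Spice1), where 11.3% were.

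Bub1 was the only one of the 51 genes with no overlap between these groups: its 4 high glucose libraries were at 6.54 to 6.75 and its 3 normal glucose libraries at 6.94 to 6.99. Of all tested genes, 1.32% had every high glucose library below every normal glucose library. Its difference was -0.31 (SE 0.35, unadjusted p = 0.401). Ccnf was at 6.17, 5.98, 6.61 and 6.47 with Hsp70, against 6.73, 4.97, 5.90 and 6.32 in high glucose and 6.88, 6.53 and 6.37 in normal glucose, with a difference of -0.61 (SE 0.36) that leaned on the high glucose library of set 3, the lowest of the 11. Cdc25c, the phosphatase that activates Cdk1, was at 4.42, 4.89, 5.76 and 5.24 with Hsp70, against 4.50, 5.20, 5.37 and 5.37 in high glucose and 5.69, 6.03 and 5.32 in normal glucose, with a difference of -0.57 (SE 0.37). Spice1 differed by 0.28 (SE 0.18), Aurkb, the kinase of the chromosomal passenger complex, by 0.33 (SE 0.24), and Cdc20, the activator of the anaphase-promoting complex, by -0.31 (SE 0.26). For these 6 genes every interval included 0.

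The general markers also overlapped here. Mki67 differed by -0.18 (SE 0.34), Top2a by -0.09 (SE 0.20), Ccnb1 by 0.11 (SE 0.21) and Cdk1 by 0.12 (SE 0.17). Pcna was at 10.56, 9.98, 10.25 and 9.98 with Hsp70, against 10.38, 10.15, 9.81 and 10.09 in high glucose and 10.42, 9.99 and 9.99 in normal glucose, with a difference of -0.03 (SE 0.19), and Ccnd1 differed by 0.04 (SE 0.27). Within sets, 42 of the 51 genes were lower in high glucose in set 3 (median -0.30), 18 in set 4 (0.06) and 25 in set 5 (0.03). In set 3 this held for 8 of 11 licensing and helicase genes (-0.30), 9 of 11 chromosome, kinetochore and checkpoint genes (-0.24) and 10 of 11 spindle and cytokinesis genes (-0.42). The differences of set 3 had a Spearman correlation of 0.29 with transcript length and -0.37 with GC content over 12684 genes, and 0.23 and -0.30 over the 51. In set 4 they were 0.12 and -0.07 over all genes and 0.13 and -0.02 over the 51, and in set 5 -0.31 and 0.17 over all genes and -0.30 and -0.04 over the 51. The part of length and GC content was not tested.

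The third comparison set Hsp70 in high glucose against normal glucose. It shares its libraries with the first and second, so it adds no independent evidence to them. limma called 0 of 18248 genes (0.0%) at an adjusted p under 0.05, and 0 of the 51, and at an unadjusted p under 0.05 it listed 178 genes (0.975%), 105 lower with Hsp70 (0.575%) and 73 higher (0.4%), and 0 of the 51. The median difference over the 51 genes was -0.09, with 37 below 0, against 0.00 over all tested genes, with 50.9% below 0. With the file set as a block the median was -0.11, with 45 of the 51 genes below 0, against 0.00 over all tested genes, with 50.0% below 0, and 4 of the 51 had an unadjusted p under 0.05 (3.22% of all tested genes did, 1.88% lower and 1.34% higher). They were Mcm2 (-0.40, SE 0.12, unadjusted p = 0.0103), Cdk4 (-0.30, SE 0.11), Cdt1 (-0.54, SE 0.21) and Bub1 (-0.77, SE 0.34), all lower with Hsp70 than in normal glucose.

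Without the block, Bub1 had the smallest p of the 51 genes, with a difference of -0.77 (SE 0.35, 95% interval -1.54 to 0.005, unadjusted p = 0.0513). Its 3 normal glucose libraries lay within 0.06 of each other, while its 4 Hsp70 libraries spread over 1.98 and reached above them in set 5. Ckap2l differed by -0.33 (SE 0.17), Ccnb1 by -0.35 (SE 0.21) and Cdc25c by -0.61 (SE 0.37). Kif11, the motor that pushes spindle poles apart, was at 8.48, 8.03, 7.77 and 8.76 with Hsp70, against 8.80, 8.19, 8.67 and 8.42 in high glucose and 8.25, 8.57 and 8.97 in normal glucose, and differed by -0.34 (SE 0.26). Ttk, a checkpoint kinase, differed by -0.33 (SE 0.26). Every one of these intervals included 0.

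Of the fixed markers, Mki67 differed by -0.17 (SE 0.34) between Hsp70 and normal glucose, Top2a by -0.12 (SE 0.20), Cdk1 by -0.06 (SE 0.17), Pcna by 0.06 (SE 0.19) and Ccnd1 by 0.04 (SE 0.27). Mcm2 differed by -0.24 (SE 0.22) without the block. Within sets, 39 of the 51 genes were lower with Hsp70 than in normal glucose in set 3 (median -0.43), 26 in set 4 (-0.07) and 13 in set 5 (0.13). Set 3 and set 5 thus lay on opposite sides for most of these genes. Cdk4, Cdc25c, Cdt1, Mcm2, Mcm5 and Kif11 were lower with Hsp70 in all 3 sets (11.8% of the 51 genes, against 9.92% of all tested genes), and Ccnb2, another mitotic cyclin, was higher in all 3 (7.62% of all tested genes were).

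The levels of some G1 and replication genes differed between the file sets, with the group in the model. The share of the 51 genes called was below that of all tested genes. Each library entered this model as its own sample, although the libraries of a set belong together. The p-values among sets therefore rest on variation from library to library. How much further sets would vary was not measured. Here limma called 2165 of 18248 genes (11.9%) among the 4 sets at an adjusted p under 0.05, and 4 of the 51 (7.84%): Cdt1 (adjusted p = 0.00746), Cdk4 (adjusted p = 0.0211), Mcm2 (adjusted p = 0.04) and Ccnd1 (adjusted p = 0.0478). At an unadjusted p under 0.05 there were 11 of the 51, against 29.6% of all tested genes. These levels are set across files that may have been normalized apart. The means of Cdt1 were 8.33 in set 2, 6.69 in set 3, 7.68 in set 4 and 7.43 in set 5. For Cdk4 they were 10.99, 10.31, 10.64 and 10.51 in sets 2 to 5, and for Mcm2 9.26, 8.72, 8.69 and 8.90. Ccnd1 was at 12.66, 11.50, 12.24 and 12.20 with Hsp70, against 12.63, 11.66, 12.10 and 12.18 in high glucose and 12.13, 11.998 and 12.20 in normal glucose, highest in the libraries of set 2 and lowest in 2 of the 3 of set 3. Of these calls, Cdt1 kept its call among sets under 18 of 20 alternatives (adjusted p up to 0.0651), Cdk4 under 13 (up to 0.129), Ccnd1 under 9 (up to 0.201) and Mcm2 under 8 (up to 0.242). Mcm2 lost it when any 1 of 10 of the 11 libraries was left out, and with no group in the model. Without the high glucose library of set 3 limma called 613 genes and 0 of the 51, and without the Hsp70 library of set 2 1022 genes and 0 of the 51. Without the Hsp70 library of set 4 it called 5195 genes and 12 of the 51.

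Set 3, the set with the highest endothelial and macrophage marker levels, was also set against the mean of the other sets. This contrast was chosen with earlier results of these data known, so its p-values are not those of a planned test. It also takes each library of a set as its own sample, with the limit given above. limma called 2317 genes (12.7%), 1499 higher (8.21%) and 818 lower (4.48%), and 3 of the 51, all lower in set 3. Cdt1 differed by -1.19 (SE 0.18, adjusted p = 0.00223), Cdk4 by -0.43 (SE 0.09, adjusted p = 0.0154) and Ccnd1 by -0.57 (SE 0.14, adjusted p = 0.0238). In all, 38 of the 51 genes were below 0 (median -0.09), against 50.2% of all tested genes (median 0.00). Mki67 differed by -0.23 (SE 0.23, adjusted p = 0.598) and Top2a by -0.29 (SE 0.16, adjusted p = 0.284). By role, all 5 G1 and S phase genes (median -0.40), 10 of 11 licensing and helicase genes (-0.21) and 10 of 11 spindle and cytokinesis genes (-0.12) were below 0. Of the markers, 11 of 12 endothelial and 10 of 12 macrophage and leukocyte genes were called higher in set 3. So were 5 of 9 fibroblast, 3 of 5 Schwann cell and 3 of 8 smooth muscle and pericyte genes, and the pericyte gene Cspg4 was called lower. Given how set 3 was chosen, these marker calls are a description and not independent evidence. The part of a different mix of cells in the lower levels of Cdt1, Cdk4 and Ccnd1 was not tested.

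The other genes of the pathway were counted in 5 lists. The 12 CDK inhibitors and antiproliferative genes had 0 members with an unadjusted p under 0.05 in all 3 comparisons of groups. Their smallest p between Hsp70 and high glucose belonged to Gas1, a growth arrest gene (-0.23, SE 0.19), and Cdkn2c, an inhibitor of Cdk4 and Cdk6 (-0.21, SE 0.20). Between high and normal glucose the same pair came first, at 0.24 (SE 0.21) and 0.23 (SE 0.22). Among sets this list had 3 of 12 genes called, against 11.9% of all tested genes. Cdkn2a, which encodes the Ink4a and Arf tumour suppressors, was at 10.60, 8.86, 10.92 and 10.43 with Hsp70, 10.49, 9.09, 10.35 and 10.47 in high glucose and 9.51, 10.56 and 10.51 in normal glucose, and differed in set 3 by -1.41 (SE 0.15, adjusted p = 0.000318). Both it and its neighbour Cdkn2b were lower in set 3 (Cdkn2b by a difference of -0.76, SE 0.12, adjusted p = 0.00237), while Cdkn1c (0.73, SE 0.13, adjusted p = 0.00508) and Cdkn2c (0.51, SE 0.11, adjusted p = 0.0165) were higher.

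The 17 pocket proteins, MuvB subunits and other E2F factors had 0 members with an unadjusted p under 0.05 in the 3 comparisons. With the block, E2f2, an activating E2F factor, was higher than in normal glucose with Hsp70 (1.18, SE 0.41, unadjusted p = 0.0183) and in high glucose (0.98, SE 0.41, unadjusted p = 0.0415). Those values share the normal glucose libraries, and neither passed adjustment. Of 18 other cyclins, kinases and regulators, 1 had an unadjusted p under 0.05 between Hsp70 and high glucose: Fbxo5, the inhibitor of the anaphase-promoting complex also called Emi1, was lower (-0.69, SE 0.28, unadjusted p = 0.0294), and 0 had one in the other comparisons. The median of that list was -0.10 between Hsp70 and high glucose, with 12 of 18 below 0.

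The 42 other replication genes and the 49 other mitosis genes had 0 members at that p in the 3 comparisons without the block. Between Hsp70 and high glucose their medians were 0.01 (20 of 42 below 0) and -0.07 (29 of 49 below 0). The smallest p belonged to the helicase subunit Gins3 (-0.33, SE 0.18) among replication genes and to the centromere gene Cenpm (0.51, SE 0.29) among mitosis genes. With the block, Rpa3, a subunit of the single-strand binding protein, was lower with Hsp70 than in high glucose (-0.57, SE 0.22, unadjusted p = 0.0266), and Chaf1b, a chromatin assembly subunit, was lower in high than in normal glucose (-0.57, SE 0.23, unadjusted p = 0.0355). Ska1, which couples kinetochores to microtubules, was lower with Hsp70 than in normal glucose (-1.06, SE 0.41, unadjusted p = 0.0275). None of these passed adjustment over all genes. Among sets, Orc4 of the replication list was called (adjusted p = 0.0341), and Rpa3 was higher in set 3 (0.85, SE 0.21, adjusted p = 0.0285).

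The remaining members are given by role, as means of the groups. Of the G1 and S phase genes, Ccne1, a partner of Cdk2, was at 8.62 ± 0.53 with Hsp70, 8.63 ± 0.33 in high glucose and 8.58 ± 0.18 in normal glucose (SD, n = 4, 4 and 3, as for the values that follow). Cdk2 was at 7.51 ± 0.33, 7.41 ± 0.14 and 7.48 ± 0.40 in the same groups. Neither gene's means differed by as much as the smallest of its 3 SDs. Ccna2, the cyclin of S and G2 phase, was at 9.22 ± 0.33 with Hsp70, 8.98 ± 0.19 in high glucose and 9.19 ± 0.22 in normal glucose, and Ccnb2 at 6.74 ± 0.35, 6.74 ± 0.34 and 6.57 ± 0.32. Of the helicase genes, Mcm3 was at 9.66, 8.23, 9.05 and 9.0 with Hsp70, against 9.56, 8.64, 8.82 and 8.93 in high glucose and 9.25, 8.81 and 9.02 in normal glucose. It was high in both libraries of set 2 and low with Hsp70 in set 3. Mcm5 was at 7.35 ± 0.31 with Hsp70, 7.34 ± 0.42 in high glucose and 7.41 ± 0.16 in normal glucose, and Mcm6 at 9.11 ± 0.28, 9.10 ± 0.28 and 9.01 ± 0.39. Gins1 and Gins2, which join the helicase at the fork, were at 5.46 ± 0.35 and 7.80 ± 0.26 with Hsp70, 5.39 ± 0.45 and 7.94 ± 0.20 in high glucose and 5.17 ± 0.37 and 7.85 ± 0.04 in normal glucose. Gins2 shares 2758 exon bases with Gse1 on the other strand.

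Rrm2, the regulated subunit of ribonucleotide reductase, was at 8.29 ± 0.38 with Hsp70, 8.45 ± 0.25 in high glucose and 8.55 ± 0.29 in normal glucose. Tyms was at 9.04, 10.01, 9.63 and 10.19 with Hsp70, against 9.33, 9.46, 10.11 and 9.49 in high glucose and 9.60, 9.87 and 10.21 in normal glucose, lowest in the libraries of set 2, where Pcna was at 10.56 with Hsp70 and 10.38 in high glucose. Among kinetochore genes, Cenpa, the centromeric histone, was at 7.05 ± 0.53 with Hsp70, 7.24 ± 0.23 in high glucose and 7.24 ± 0.08 in normal glucose. Its lowest library, at 6.30, was the Hsp70 one of set 2. Cenpe was at 9.13, 9.65, 9.56 and 10.66 with Hsp70, against 9.77, 9.38, 10.26 and 10.05 in high glucose and 9.50, 10.25 and 10.27 in normal glucose. Bub1b, a checkpoint kinase, was at 7.74 ± 0.28 with Hsp70, 7.93 ± 0.09 in high glucose and 7.87 ± 0.12 in normal glucose, and Birc5, the passenger protein survivin, at 7.41 ± 0.42, 7.42 ± 0.11 and 7.50 ± 0.35. For both genes the means differed by less than the SD with Hsp70.

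Among spindle genes, Aurka and Plk1, kinases of the centrosome and spindle, were at 7.63 ± 0.10 and 6.87 ± 0.22 with Hsp70, 7.56 ± 0.23 and 6.90 ± 0.44 in high glucose and 7.50 ± 0.31 and 6.85 ± 0.51 in normal glucose. The motors Kif20a and Kif2c were at 8.68 ± 0.37 and 7.38 ± 0.54 with Hsp70, 8.77 ± 0.17 and 7.70 ± 0.39 in high glucose and 8.76 ± 0.10 and 7.67 ± 0.24 in normal glucose. Kif2c was at 6.76 in the Hsp70 library of set 2, its lowest, against 7.86 in the high glucose library of that set. Tpx2, which activates Aurka, was at 9.46 ± 0.29 with Hsp70, 9.50 ± 0.24 in high glucose and 9.59 ± 0.17 in normal glucose. Nusap1, a spindle microtubule protein, was at 8.20 ± 0.39, 8.42 ± 0.42 and 8.24 ± 0.27 in these groups, and Anln, a protein of the cytokinetic ring, at 9.09 ± 0.45, 8.94 ± 0.24 and 9.13 ± 0.13. For each of these 7 genes the groups overlapped. Kif20a shares 1271 exon bases with Cdc23 and Prc1 670 with Rccd1, in each case on the other strand.

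Of the members named above without their group means, Cdc6 was at 5.36 ± 0.86 with Hsp70, 5.68 ± 0.37 in high glucose and 5.58 ± 0.36 in normal glucose, and Mcm7 at 9.22 ± 0.24, 9.22 ± 0.05 and 9.20 ± 0.14. Rrm1 was at 10.42 ± 0.25, 10.46 ± 0.25 and 10.52 ± 0.07 in the same groups, and E2f1 at 10.49 ± 0.25, 10.58 ± 0.21 and 10.56 ± 0.24. Cdc6 had the widest spread of these 4 genes with Hsp70. Among mitosis genes, Mad2l1 was at 6.89 ± 0.27 with Hsp70, 7.01 ± 0.20 in high glucose and 6.86 ± 0.43 in normal glucose. Aurkb was at 5.96, 6.17, 6.25 and 6.58 with Hsp70, against 6.51, 6.39, 6.82 and 6.23 in high glucose and 6.50, 6.06 and 5.92 in normal glucose. Cdc20 was at 7.15, 7.31, 7.66 and 8.10 with Hsp70, against 7.86, 7.31, 7.58 and 7.02 in high glucose and 7.95, 7.57 and 7.74 in normal glucose. In both genes the groups overlapped, as they did in Ttk and Prc1. Ttk was at 6.17, 5.98, 5.91 and 6.64 with Hsp70, against 6.70, 5.91, 6.26 and 6.54 in high glucose and 6.65, 6.53 and 6.35 in normal glucose, and Prc1 in normal glucose was at 8.67 ± 0.31. Mcm7 shares 321 exon bases with Ap4m1 and Ccnd1 818 with LTO1, in each case on the other strand.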

How the data were processed

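RNA of 11 libraries, 4 with high glucose and Hsp70, 4 with high glucose and 3 with normal glucose, was sequenced after a stranded Clontech SMARTer preparation, per the labels' protocols. TopHat, edgeR and the mouse build mm10 are named in the submitters' processing notes, with no versions. The deposited values are log2(normalized count + 1), as made by the authors. Each file had 23282 rows, of which 44 repeated a symbol and were dropped, leaving 23238 genes. The kind of normalization, the depth in reads and the use of strand in counting are not given in the sources.

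Groups were compared with limma 3.58.1 in R 4.3.3, with a mean trend and robust variances, over the 18248 genes with a normalized count of 1 or more in 3 libraries or more. All 11 libraries entered each fit, p-values were adjusted over all genes by Benjamini-Hochberg, and the threshold was 0.05. Unadjusted p-values come from the same limma fit. The script was tested on simulated data with independent noise in each library. That test does not show how the group fits behave when libraries share set differences. Promoters came from RefSeq on GRCm38.p6, and transcript lengths from GENCODE M21. Python 3.11.15 and matplotlib 3.10.9 drew the figures.

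Libraries were paired by the set number of the deposited file names. Over all genes, the deviations of same-set libraries from their group means correlated at 0.594, 0.302 and 0.285 between high and normal glucose. Over the listed cell cycle and replication genes alone these correlations were 0.245, 0.459 and 0.252. The pairing follows the file names and does not rest on these correlations. Whether shared cultures or shared normalization gave these values was not tested. With Hsp70, a pair in set 4 was under 0.1 over all genes, at 0.0586 against high glucose and 0.0219 against normal glucose. Within-set values are shown there as a description. Over the listed genes alone, Hsp70 against high glucose gave 0.532, 0.518, -0.192 and 0.204 in sets 2 to 5. Against normal glucose it gave -0.231, -0.123 and 0.495 in sets 3 to 5, so the sign changed between sets.

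The 51 genes and the pathway lists were chosen with earlier results of these data known. Full values are given in each comparison for Mki67, Top2a, Ccnb1, Cdk1, Mcm2, Pcna, Ccnd1 and the 6 genes of the 51 with the smallest unadjusted p. For pathway lists, counts are given with up to 4 genes of smallest p. Genes outside the lists are the 5 most correlated with the mean of the 51. Alternatives changed the filter, scaling, pseudocount, variance model, block and the libraries used.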

Additional observations from a re-analysis of the deposited data

Results flagged for a closer look

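In 5 of the 102 gene and group combinations with 4 libraries, 1 library stood further from the other 3 than Dixon's 95% critical value for the gap over the range allows. Chance gives about 1 in 20. Ccne2, an E-type cyclin, was at 7.67 in the Hsp70 library of set 4, against 8.38 to 8.50 in the other Hsp70 libraries, and at 8.83 in the high glucose library of the same set, against 8.46 to 8.48 in the other high glucose libraries. The mitotic kinase Cdk1 was at 8.56 in the high glucose library of set 5, against 9.06 to 9.16 in the others of its group. E2f1 was at 10.89 in the high glucose library of set 4, against 10.45 to 10.50 in the others. The kinesin Kif2c was at 7.12 in the high glucose library of set 3, against 7.86 to 7.94 in the others.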

How the results depend on the processing

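In each comparison of groups 0 of the 51 genes passed the adjusted threshold under all 26 alternatives, and 0 genes in all, except for 3 genes between Hsp70 and high glucose and 3 between Hsp70 and normal glucose without Hsp70 replicate 2, the library of set 3. Leaving out 1 library thus gave 0 to 3 genes there. With the file set as a replicate block limma called 0 genes in each comparison, and with the title number as a replicate block also 0. The file set as a replicate block listed 305, 636 and 587 genes at an unadjusted p under 0.05 in the comparisons of Hsp70 with high glucose, high with normal glucose and Hsp70 with normal glucose, against 136, 185 and 178 without it. The median difference of the 51 genes lay near 0 and changed sign under some alternatives, with ranges of -0.16 to 0.02, -0.14 to 0.08 and -0.26 to 0.07 in those comparisons. The median difference of the 51 genes between high and normal glucose was -0.14 in sets 2 and 3 alone, and between Hsp70 and normal glucose -0.26 in sets 2 and 3 and 0.072 in sets 4 and 5 alone. Sets 2 and 3 hold 1 normal glucose library, so the values from them rest on that library. Among sets, limma called 1375 genes with no filter, 8529 with sample weights and 1396 without trend and robust variances, and of the 51 it called 23 with sample weights and 1 without trend and robust variances. For set 3, sample weights gave 6662 genes and 19 of the 51. Leaving out 1 library gave 613 to 5195 genes and 0 to 12 of the 51 among sets, and 966 to 3804 genes and 1 to 5 of the 51 for set 3. The lowest count of genes came without the high glucose library of set 3 and the highest without the Hsp70 library of set 4, in both cases. Cdt1 remained called in set 3 under all 20 alternatives, Cdk4 under 16 and Ccnd1 under 10. The cause was not tested. The differences of these 3 genes in set 3 stayed below 0 under all 20. The number of libraries limits these comparisons, and depth in reads is not known.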
